A study of Mus musculus with 14 samples.

Results

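The Hox genes encode homeodomain transcription factors and lie in 4 clusters, Hoxa to Hoxd, numbered as paralogs from 1 to 13 by their place in the cluster. They were chosen by name, as all genes whose only symbol in the array annotation is Hoxa, Hoxb, Hoxc or Hoxd followed by a number. This gave 34 of the 39 mouse Hox genes in RefSeq, among 17097 genes measured, with 9 genes of the Hoxa, 10 of the Hoxb, 6 of the Hoxc and 9 of the Hoxd cluster. The others were not analysed here. Each gene was read on a single probe set, selected on its mean signal over the 14 arrays, with the highest taken. This mean decided between several probe sets for 6 Hox genes.

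Expression was measured on 14 Affymetrix arrays with RNA of epidermal cells from mice aged 15 weeks with skin in homeostasis. The cells came from the bulge, the part of the hair follicle that houses its stem cells, or from the interfollicular epidermis (IFE), the stratified epithelium between follicles. The mice were G9a cKO, a conditional knockout of the histone H3 lysine 9 methyltransferase G9a, or G9a WT; the groups were bulge cKO (n = 4), bulge WT (n = 3), IFE cKO (n = 4) and IFE WT (n = 3). The sources used here do not give the Cre driver, the time of deletion or the way in which the cells were separated. They also do not say whether replicates were separate animals, so a p-value measures only the spread between samples.

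Hox proteins give cells a positional identity along the body axis, and adult skin keeps a memory of that position in the set of Hox genes it expresses. Genes at the low end of the paralog numbers act in anterior structures and those at the high end in posterior and distal ones. Within a cluster, neighbouring genes often share regulatory regions, and their silencing is a classical task of Polycomb complexes, with Trithorax complexes acting against it. Hox proteins bind DNA together with cofactors of the TALE family, among them Pbx and Meis. In hair follicles Hoxc13 is known for its control of hair keratin genes.

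The RefSeq sequence upstream of an annotated start was read for the Hox genes with an entry, 21 of the 34 in 23 windows of 250 bases (build GRCm38.p6). The 4 windows below belong to genes that were lower in bulge cKO cells and stand for 3 of the clusters, so that the start regions of genes that moved together can be compared. CpG dinucleotides, the sites of DNA methylation in mammals, are in capitals. The Hoxa3 window lies at chr6:52213068-52213317 on the minus strand, that of Hoxa5 at chr6:52204588-52204837 on the minus strand, that of Hoxb8 at chr11:96281655-96281904 on the plus strand and that of Hoxd9 at chr2:74697513-74697762 on the plus strand, each written 5′ to 3′ along its own strand.
Hoxa3: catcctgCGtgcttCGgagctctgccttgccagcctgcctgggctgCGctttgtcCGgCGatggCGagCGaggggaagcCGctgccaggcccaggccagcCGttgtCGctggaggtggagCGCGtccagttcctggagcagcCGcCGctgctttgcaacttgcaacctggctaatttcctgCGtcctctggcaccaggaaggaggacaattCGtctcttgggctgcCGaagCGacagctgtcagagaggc
Hoxa5: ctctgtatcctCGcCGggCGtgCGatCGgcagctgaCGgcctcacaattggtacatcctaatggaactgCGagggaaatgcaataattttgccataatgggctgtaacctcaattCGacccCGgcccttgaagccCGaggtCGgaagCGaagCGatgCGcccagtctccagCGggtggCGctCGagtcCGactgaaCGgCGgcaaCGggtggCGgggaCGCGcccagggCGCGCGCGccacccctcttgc
Hoxb8: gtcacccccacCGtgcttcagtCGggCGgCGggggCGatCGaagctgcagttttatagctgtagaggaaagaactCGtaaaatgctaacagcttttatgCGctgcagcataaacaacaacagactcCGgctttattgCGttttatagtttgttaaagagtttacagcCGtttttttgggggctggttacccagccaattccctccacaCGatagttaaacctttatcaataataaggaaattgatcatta
Hoxd9: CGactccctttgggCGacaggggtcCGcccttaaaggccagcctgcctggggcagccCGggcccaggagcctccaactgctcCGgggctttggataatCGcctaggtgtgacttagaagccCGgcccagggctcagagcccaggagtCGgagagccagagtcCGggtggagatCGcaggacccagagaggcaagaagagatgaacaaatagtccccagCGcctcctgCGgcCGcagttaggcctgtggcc

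These windows held 18 CpG for Hoxa3, 28 for Hoxa5, 12 for Hoxb8 and 13 for Hoxd9. The Hoxb8 window lies inside the RefSeq span of that gene, chr11:96279401-96285325, and not upstream of all of it. The 23 Hox windows held between 2 and 35 with a median of 12, against a median of 6 and an upper quartile of 16 over the 32851 RefSeq windows of this length. The 7 lower genes with a window spanned 6 to 28. The letters TGATTNAT, a form of the site shared by Pbx and Hox proteins, were searched on both strands and occurred in the window of 1 of the 7, Hoxa2, and in 2 Hox windows in all, against 2.8% of all windows. The letters TATAAA, searched likewise, occurred in that of 1 of the 7, Hoxb8, and in 4 Hox windows, against 12.4% of all; the searches were made separately, and neither motif contains the other. A match of letters describes the sequence only.

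Signals are given on the log2 scale of the deposited values, on which a difference of 1 is a doubling; probe sets differ in their response, so levels were compared between groups for 1 gene and not between genes. The median of all probe sets lay between 5.76 and 5.84 on the 14 arrays, and arrays have no read depth, so their number limits the precision. Of the 34 Hox genes, 13 lay above the median of each array, 15 below it on all arrays and 6 above it on some. Among the 10 genes of paralogs 10 to 13, 8 were above it on no array. G9a itself, encoded by Ehmt2, checked the genotype: on 1 of its probe sets it read 5.85 to 6.02 in bulge cKO and 9.51 to 9.69 in bulge WT cells, and 5.95 to 6.09 in IFE cKO and 9.59 to 9.78 in IFE WT cells. On the other, whose place relative to the deleted part is unknown here, the log2 differences were 0.01 in bulge and 0.08 in IFE. The 11 bulge stem cell markers, among them Cd34, Lgr5 and Lhx2, were all higher in bulge than in IFE cells in WT, with a median log2 difference of 3.13. Bulge cKO replicates 2 and 3 stood apart from the other bulge arrays and nearer to IFE: on the first principal component, with 72.5% of the variance, they lay at -6.9 and -11.3. The other bulge cKO arrays lay at -36.7 and -37.2, those of bulge WT at -48.2 to -42.4 and those of IFE at 23 to 40.1. Among the IFE arrays, cKO replicates 2 and 3 were the nearest to bulge, at 23.3 and 23, and no fit left both out. The Hox counts, the list calls and the named list genes of bulge cKO against bulge WT cells are given with bulge cKO replicates 2 and 3. A paragraph of its own gives them without these 2 bulge arrays.

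Many Hox genes had a higher signal in the bulge than in the IFE of WT mice, most of all in the middle of the clusters. In limma's test over all 17097 genes, with p-values adjusted by Benjamini and Hochberg and a threshold of 0.05, 19 of the 34 were higher in bulge WT cells and 0 were lower (17 and 2 with cyclic loess or median centring), while 18.4% of all genes were higher and 16.6% lower. At an unadjusted p under 0.05, there were 19 higher and 2 lower Hox genes. The share of all genes past an unadjusted p is not given, so unadjusted counts here and below have no background to be read against. The 2 called lower with those scalings were Hoxd11 (-0.13 with cyclic loess and -0.17 with median centring, limma adjusted p = 0.0338 and 0.0129) and Hoxd13 (-0.17 and -0.19, limma adjusted p = 0.0385 and 0.0318). Some other settings also called either or both of them lower, as given at the end. The median log2 difference of the 34 Hox genes was 0.23, against -0.01 over all genes, and ranged up to 3.1. By cluster, 5 of 9 Hoxa, 8 of 10 Hoxb, 4 of 6 Hoxc and 2 of 9 Hoxd genes were higher. By paralog number, the calls took in 9 of 14 genes of paralogs 1 to 5, 9 of 10 of paralogs 6 to 9 and 1 of 10 of paralogs 10 to 13.

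**Figure D1:**
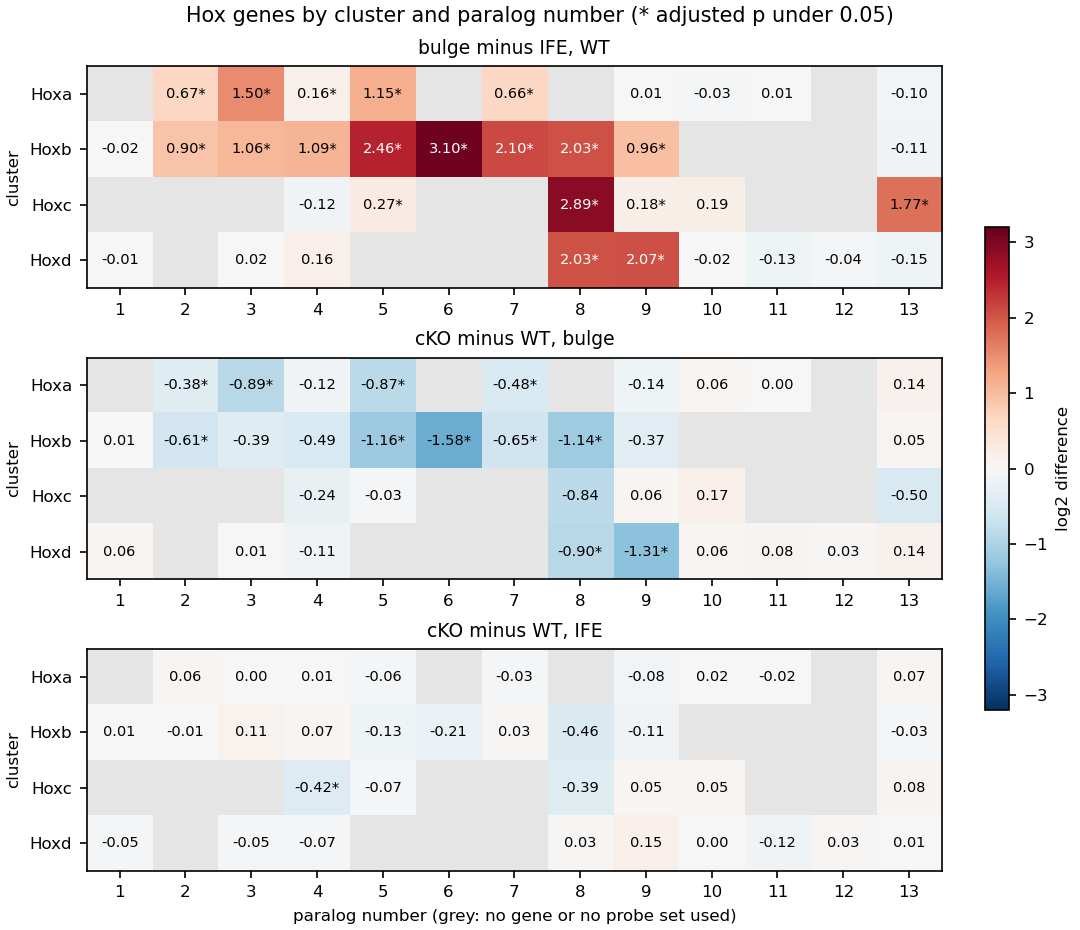
Log2 difference of each Hox gene, arranged by cluster (rows) and paralog number (columns), for bulge minus IFE in WT (top), cKO minus WT in bulge (middle) and cKO minus WT in IFE (bottom); stars mark a limma adjusted p under 0.05 and grey squares have no gene or no probe set used. In the top map 19 squares are called and positive, in the middle map 11 are called and negative, and in the bottom map Hoxc4 alone is called.

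The largest measured difference was that of Hoxb6, a gene of the trunk region. It read 7.08, 7.39 and 7.39 in bulge WT cells, against 3.97, 4.58 and 4.00 in IFE WT cells, a log2 difference of 3.10 with a standard error of 0.38 (limma adjusted p = 8.5e-05). All IFE arrays lay below the array median for this gene, where a log2 difference can understate the change, and all bulge WT arrays above it. Hoxc8, which in mice patterns the thoracic skeleton and limb motor neurons, followed with 8.98, 9.56 and 9.25 in bulge WT cells, against 6.13, 6.89 and 6.10 in IFE WT cells, a log2 difference of 2.89 with a standard error of 0.36 (limma adjusted p = 9.34e-05). Its groups were far apart on every array. Hoxb5 differed by 2.46, Hoxb7 by 2.10, Hoxd9 by 2.07, and Hoxb8 and Hoxd8 by 2.03 each on the log2 scale, all with limma adjusted p of 0.000147 or less. Thus 7 genes of paralogs 5 to 9 had differences above 2.

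Hoxc13 was the gene of paralogs 10 to 13 that passed in WT. It read 6.91, 7.42 and 7.23 in bulge WT cells, against 5.27, 5.53 and 5.47 in IFE WT cells, a log2 difference of 1.77 with a standard error of 0.21 (limma adjusted p = 6.69e-05). The bulge arrays lay above the array median and the IFE arrays below it. Among the low paralogs, Hoxa3, which in mice is needed for the thymus and parathyroid, differed by 1.5, Hoxa5, needed for the lung and the cervical skeleton, by 1.15, Hoxb4 by 1.09 and Hoxb3 by 1.06 on the log2 scale. Hoxb9 differed by 0.96, Hoxb2 by 0.90, Hoxa2 by 0.67 and Hoxa7 by 0.66. The smallest called differences were 0.27 for Hoxc5, 0.18 for Hoxc9 and 0.16 for Hoxa4, with limma adjusted p of 0.0275, 0.0396 and 0.0341. The Hoxa4 signal lay below the array median on every array, so the same limit holds for it. The calls of Hoxc5, Hoxc9 and Hoxa4 were kept in 11 of 18, 9 of 18 and 8 of 17 other settings of the fit. When limma tested every probe set, the other Hoxc5 probe set had 0.19 (adjusted p = 0.264) and was not called.

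In bulge cells without G9a a set of these genes was lower. In limma's test 11 of the 34 Hox genes were lower in bulge cKO than in bulge WT cells and 0 were higher, while 1.85% of all genes were lower and 1.98% higher. The median log2 difference was -0.19 over the 34 Hox genes and 0.01 over all genes, with a range of -1.58 to 0.17. At an unadjusted p under 0.05, 17 Hox genes were lower and 1 was higher. The lower genes were Hoxa2, Hoxa3, Hoxa5 and Hoxa7 of the Hoxa cluster, Hoxb2, Hoxb5, Hoxb6, Hoxb7 and Hoxb8 of the Hoxb cluster, and Hoxd8 and Hoxd9 of the Hoxd cluster. Of the 6 Hoxc genes 0 passed limma's threshold, with 3 at an unadjusted p under 0.05. By paralog number the lower genes were 5 of 14 among paralogs 1 to 5, 6 of 10 among paralogs 6 to 9 and 0 of 10 among paralogs 10 to 13, where 2 had an unadjusted p under 0.05; the median log2 differences were -0.31, -0.74 and 0.06 in that order. These are bulk samples, in which fewer cells of a type and less RNA per cell cannot be told apart.

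**Figure D2:**
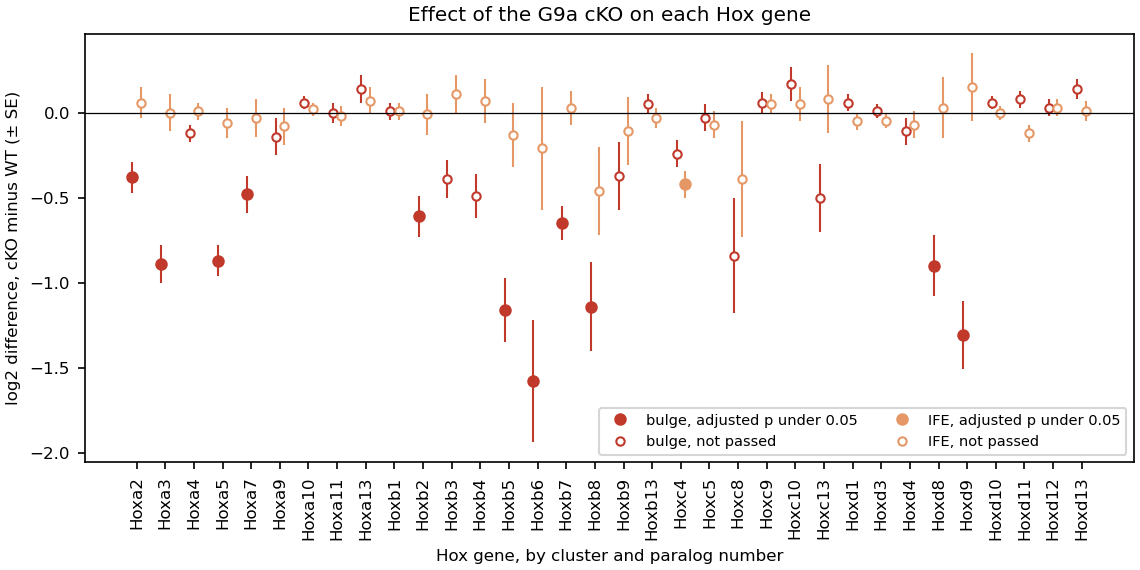
Log2 difference of cKO minus WT with its standard error for each of the 34 Hox genes, in bulge (dark) and IFE (light) cells; filled points have a limma adjusted p under 0.05. The filled bulge points lie between -1.58 and -0.38, and most IFE points lie close to 0.

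In the Hoxa cluster, Hoxa3 read 8.87, 8.55, 8.62 and 8.71 in bulge cKO cells, against 9.64, 9.59 and 9.48 in bulge WT cells, a log2 difference of -0.89 with a standard error of 0.11 (limma adjusted p = 0.00137). The cKO arrays lay close together and well under the lowest WT array. Its other 3 probe sets had differences of -0.92, -0.75 and -0.37, each also called lower when every probe set was tested. That with -0.92 was dim, at 4.67 to 4.92 in bulge cKO and 5.52 to 5.85 in bulge WT cells. Hoxa5 read 7.11, 6.73, 6.76 and 6.96 in bulge cKO cells, against 7.66, 7.84 and 7.77 in bulge WT cells, a log2 difference of -0.87 with a standard error of 0.09 (limma adjusted p = 0.000433). This was the smallest adjusted p among the Hox genes in bulge, and here too the groups did not overlap.

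Hoxa7, a gene of the thoracic region, read 8.16, 7.73, 7.75 and 7.94 in bulge cKO cells, against 8.25, 8.47 and 8.40 in bulge WT cells, a log2 difference of -0.48 with a standard error of 0.11 (limma adjusted p = 0.0403). Its highest cKO array came near the lowest WT array. Hoxa2, which in mice patterns the hindbrain and the branchial arches, read 5.37, 5.13, 5.22 and 5.57 in bulge cKO cells, against 5.78, 5.61 and 5.69 in bulge WT cells, a log2 difference of -0.38 with a standard error of 0.09 (limma adjusted p = 0.0412). All of its values lay below the array medians. Between these genes, Hoxa4 had a difference of -0.12 (limma adjusted p = 0.149), and next to Hoxa7 on the posterior side Hoxa9 had -0.14 (limma adjusted p = 0.434). In RefSeq the span of Hoxa3 overlaps those of Hoxa4, Hoxa5, Hoxa6 and the non-coding Hoxaas2 and Hoxaas3; the strand that the labelled cDNA reports is unknown here, so overlapping transcripts cannot be told apart.

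In the Hoxb cluster a run of adjacent genes from Hoxb5 to Hoxb8 was lower. Hoxb5 read 7.81, 7.03, 7.41 and 7.92 in bulge cKO cells, against 8.82, 8.69 and 8.60 in bulge WT cells, a log2 difference of -1.16 with a standard error of 0.19 (limma adjusted p = 0.00733). Hoxb7 read 8.15, 8.41, 8.13 and 8.16 in bulge cKO cells, against 9.03, 8.80 and 8.76 in bulge WT cells, a log2 difference of -0.65 with a standard error of 0.10 (limma adjusted p = 0.00594). Hoxb5 varied among the cKO arrays by close to 1 on the log2 scale, whereas Hoxb7 was nearly level on 3 of them and somewhat higher on replicate 2.

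Hoxb6 had the largest difference of all Hox genes and the widest spread, at 6.70, 4.90, 5.10 and 6.13 in bulge cKO cells, against 7.08, 7.39 and 7.39 in bulge WT cells, a log2 difference of -1.58 with a standard error of 0.36 (limma adjusted p = 0.0363). Replicates 2 and 3 of the cKO lay below the array median and replicates 1 and 4 above it. Hoxb8, needed in mice for normal grooming, read 8.98, 7.76, 7.97 and 8.51 in bulge cKO cells, against 9.28, 9.48 and 9.59 in bulge WT cells, a log2 difference of -1.14 with a standard error of 0.26 (limma adjusted p = 0.0348). The same pair of cKO arrays was the lowest. The names of the Hoxb8, Hoxd8 and Hoxb6 probe sets mark a kind whose probes may match more than 1 transcript, and Hoxb5 and Hoxb6 overlap the non-coding Hoxb5os in RefSeq.

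Nearer the anterior end, Hoxb2 read 7.10, 6.67, 6.73 and 7.12 in bulge cKO cells, against 7.53, 7.62 and 7.40 in bulge WT cells, a log2 difference of -0.61 with a standard error of 0.12 (limma adjusted p = 0.0223). It is known in mice for the patterning of the hindbrain and facial nerve. The next genes along the cluster, Hoxb4 (-0.49, limma adjusted p = 0.0513) and Hoxb3 (-0.39, limma adjusted p = 0.0603) lay just outside the threshold, while the other probe set of Hoxb4 (-0.38, adjusted p = 0.0286) and that of Hoxb3 (-0.64, adjusted p = 0.0437) passed when limma tested every probe set. Hoxb9, on the other side of the run, had a difference of -0.37 with a standard error of 0.20 (limma adjusted p = 0.262), with 7.37 on cKO replicate 1 and 6.40 to 6.71 on the other cKO arrays, against 6.87 to 7.42 in bulge WT cells.

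In the Hoxd cluster the lower genes were neighbours. Hoxd9, which acts in limb development with the other genes of paralog number 9, read 7.01, 6.67, 6.68 and 6.28 in bulge cKO cells, against 7.63, 8.27 and 8.00 in bulge WT cells, a log2 difference of -1.31 with a standard error of 0.20 (limma adjusted p = 0.00594). Here replicate 4, not 2 or 3, was the lowest. Hoxd8 read 6.28, 5.42, 5.63 and 5.43 in bulge cKO cells, against 6.32, 6.75 and 6.70 in bulge WT cells, a log2 difference of -0.90 with a standard error of 0.18 (limma adjusted p = 0.0214). Its cKO replicate 1 came within reach of the lowest WT array. The other Hoxd8 probe set had a difference of -0.35 (adjusted p = 0.115 in limma's test of every probe set). The adjoining Hoxd4 had -0.11 and Hoxd10 0.06, and both stayed below the array median on every array.

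**Figure D3:**
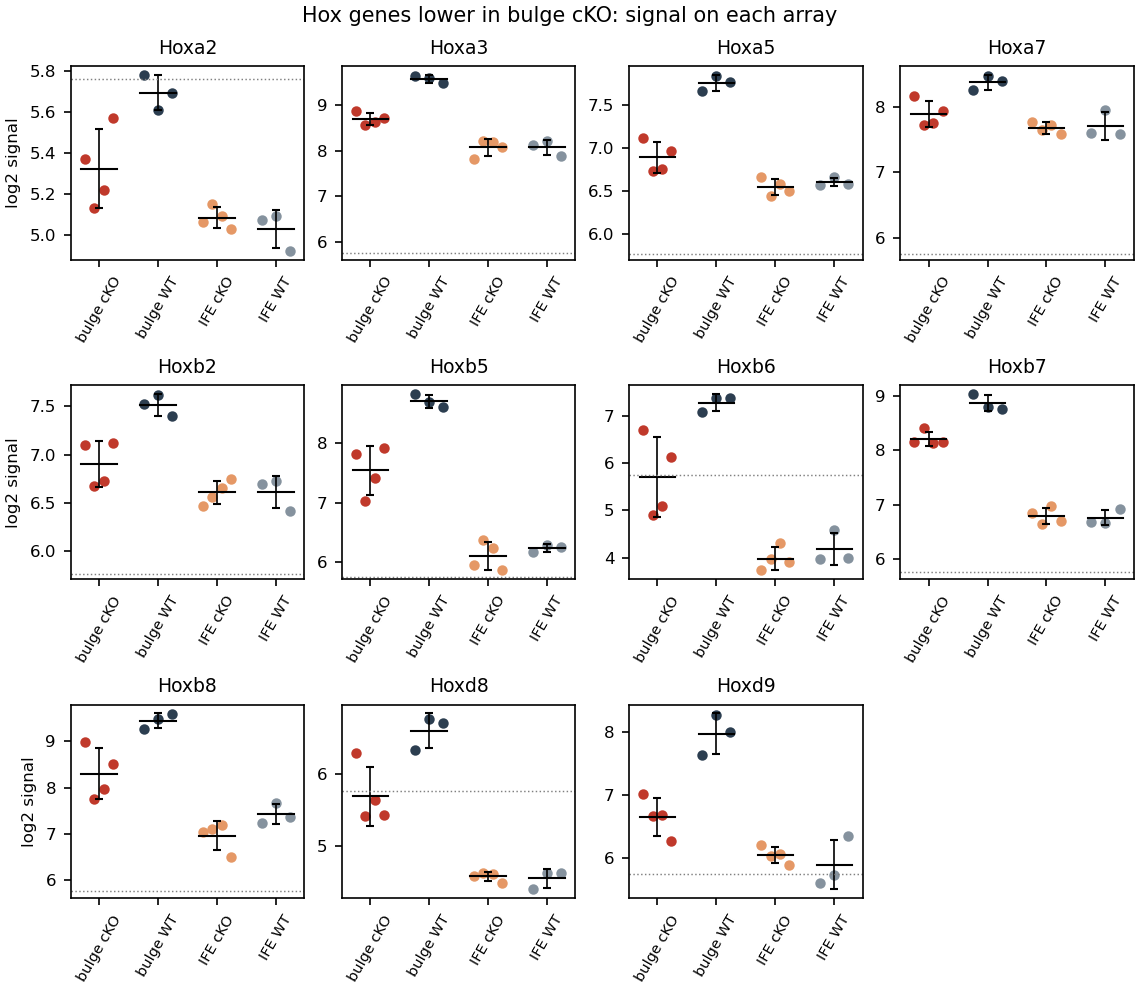
Log2 signal of the 11 Hox genes that were lower in bulge cKO cells, with a point per array, the group mean as a bar and the SD as error bars, for bulge cKO, bulge WT, IFE cKO and IFE WT; the dotted line, where the axis reaches it, is the lowest of the 14 array medians and each axis starts above 0. In every panel all 4 bulge cKO points lie below the lowest bulge WT point.

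In all 11 genes the 4 bulge cKO arrays lay below the lowest bulge WT array, as the choice of called genes favours. In 7 of them, Hoxa3, Hoxa5, Hoxb5, Hoxb6, Hoxb7, Hoxb8 and Hoxd8, the 4 bulge cKO arrays also lay above the highest IFE array, so the order was IFE, bulge cKO and bulge WT. All 11 were also called higher in bulge than in IFE in WT, which favours a place in between. Both tests use the same bulge WT arrays, which favours a call in both. The share of all genes with this order, or with both calls, is not given. In Hoxa2 and Hoxd9 3 of the bulge cKO arrays lay above the highest IFE array, in Hoxb2 2 and in Hoxa7 1. Replicate 2 was the lowest cKO array in 9 of the 11 genes and replicate 1 the highest in 7.

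Hoxc8 and Hoxc13, with large differences between bulge and IFE in WT, did not pass. Hoxc8 read 9.03, 7.65, 7.98 and 9.05 in bulge cKO cells, against 8.98, 9.56 and 9.25 in bulge WT cells, a log2 difference of -0.84 with a standard error of 0.34 (limma adjusted p = 0.151). Hoxc13 read 7.03, 6.18, 6.47 and 7.05 in bulge cKO cells, against 6.91, 7.42 and 7.23 in bulge WT cells, a log2 difference of -0.50 with a standard error of 0.20 (limma adjusted p = 0.14). In both, cKO replicates 2 and 3 were low and replicates 1 and 4 lay within the WT range. Hoxc4 had a difference of -0.24 with a standard error of 0.08 (limma adjusted p = 0.0833), Hoxc5 of -0.03 and Hoxc9 of 0.06.

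Markers of other cell states moved with the bulge cKO arrays. The mean log2 signal of the 11 bulge stem cell markers on bulge cKO arrays was 10.53, 9.81, 9.96 and 10.69, in the order of replicates 1 to 4, against 10.75 to 10.86 in bulge WT and 7.49 to 8.1 on IFE arrays, with 0 of 11 past limma's threshold between cKO and WT and 6 at an unadjusted p under 0.05. For the 11 epidermal differentiation markers the mean was 7.72, 9.57, 9.24 and 8.71 on the bulge cKO arrays, against 7.14 to 7.64 in bulge WT and 8.87 to 9.76 on IFE arrays. Of the 11, 3 were called higher, Sprr1a, Casp14 and Ovol1, and 10 had an unadjusted p under 0.05. Replicates 2 and 3 thus had the lowest bulge and the highest differentiation signal, and among IFE arrays the bulge list was highest on cKO replicates 2 and 3, at 8.06 and 8.1.

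The mean of the 8 Langerhans and antigen presenting markers was 6.43 to 7.13 in bulge cKO, against 5.91 to 6.13 in bulge WT. Of the 8, 4 were called higher, all of the MHC class II pathway (H2-Aa, H2-Ab1, H2-Eb1 and Cd74), and 6 had an unadjusted p under 0.05. That of the 5 measured T cell markers was 5.52 to 6.67 in bulge cKO, against 5.22 to 5.54 in bulge WT, with 0 past limma's threshold and 5 at an unadjusted p under 0.05. Fibroblasts are known to express Hox genes by body site; the mean of the 8 fibroblast markers was 5.32 to 5.89 in bulge cKO and 5.15 to 5.33 in bulge WT, with 0 of 8 past limma's threshold in bulge cKO (3 at an unadjusted p under 0.05) and 0 between bulge and IFE in WT (0 at an unadjusted p under 0.05). The mean of the 8 basal keratinocyte markers was 11.24 to 11.41 in bulge cKO and 11.42 to 11.56 in bulge WT, with 2 of 8 called lower and 4 at an unadjusted p under 0.05. The part of these cell types in the lower Hox signal was not tested.

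Without bulge cKO replicates 2 and 3 together, a setting chosen after seeing the data, 4 Hox genes were lower in bulge cKO: Hoxa3 (-0.78, limma adjusted p = 0.0234), Hoxa5 (-0.72, limma adjusted p = 0.0037), Hoxb5 (-0.84, limma adjusted p = 0.0233) and Hoxb7 (-0.71, limma adjusted p = 0.0227). Hoxd9 kept its size at -1.32 (limma adjusted p = 0.0605). The differences of Hoxb6 and Hoxb8 were -0.87 and -0.70 and did not pass. By cluster the calls were 2 Hoxa and 2 Hoxb genes, and by paralog number 3 of 14 among paralogs 1 to 5, 1 of 10 among paralogs 6 to 9 and 0 of 10 among paralogs 10 to 13, while 0.228% of all genes were lower and 0.45% higher. The calls of the marker lists above were all lost in this setting, where the median log2 difference was 0.73 for the differentiation list, 0.43 for the Langerhans list and -0.12 for the basal list. Of the regulators, non-coding RNAs and other homeobox genes described further on, Hoxb5os kept its call (-0.30, limma adjusted p = 0.0373), while Pbx3 (-0.34), Meis3 (0.27), Pbx4 (0.20), Aebp2 (0.62), Irx1 (-0.40) and Pitx1 (0.19) did not pass, with limma adjusted p of 0.16 to 0.39. With only 1 array left out, the count was 5 without cKO replicate 2, 5 without cKO replicate 3, and 6, 5 and 6 without WT replicates 1, 2 and 3, while it was 12 without cKO replicate 1 and 14 without cKO replicate 4. For fits with 1 array left out the share of all genes called is not given. Hoxa3, Hoxa5 and Hoxb7 were called lower in each of the 19 other settings of the fit.

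**Figure D4:**
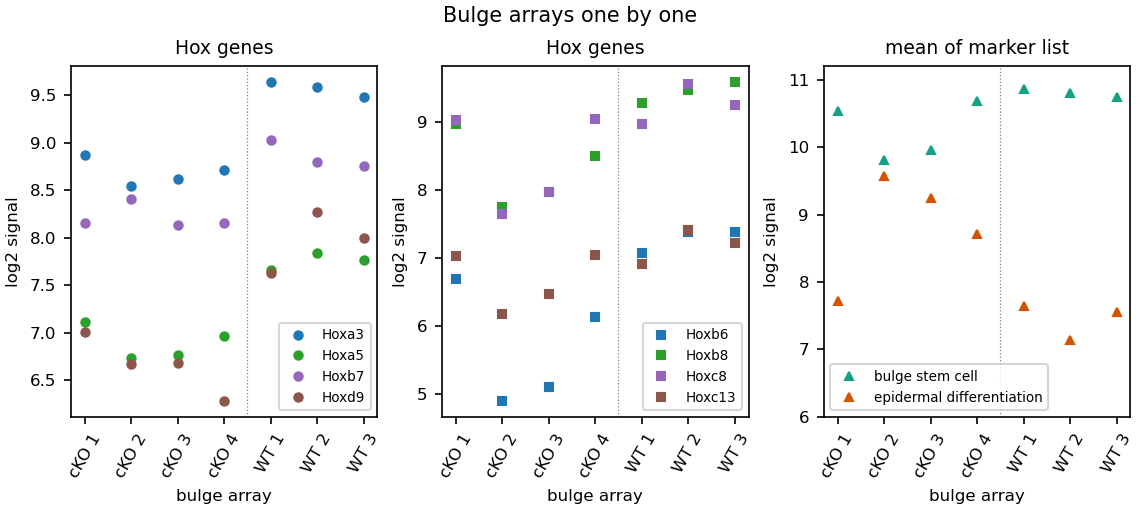
Log2 signal on each of the 7 bulge arrays, cKO replicates 1 to 4 left and WT replicates 1 to 3 right of the dotted line, for 4 Hox genes kept or nearly kept without cKO replicates 2 and 3 (left), for 4 Hox genes lowest on these replicates (middle) and for the mean of 2 marker lists (right). Hoxb6 reads 4.90 and 5.10 on cKO replicates 2 and 3, where the differentiation list is at 9.57 and 9.24, while Hoxa3 stays between 8.55 and 8.87 on all cKO arrays. The panels show a selection and not separate classes. Hoxb5, also kept, is not drawn, and Hoxa3 and Hoxa5 of the left panel were also lowest on cKO replicates 2 and 3.

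In IFE cells the Hox genes differed little in size between the genotypes, by -0.46 to 0.15 on the log2 scale. In limma's test 1 of the 34, Hoxc4, was lower in IFE cKO than in IFE WT cells and 0 were higher, while 0.175% of all genes were lower and 0.322% higher; at an unadjusted p under 0.05 the Hox count was 2. The median log2 difference was 0 for the 34 Hox genes and -0.01 for all genes. Hoxc4 read 4.82, 4.81, 4.88 and 4.95 in IFE cKO cells, against 5.18, 5.47 and 5.20 in IFE WT cells, a log2 difference of -0.42 with a standard error of 0.08 (limma adjusted p = 0.0315). The groups did not overlap, but all values lay below the array median. This call was lost without IFE WT replicates 1 (-0.47, limma adjusted p = 0.0559) or 2 (-0.32, limma adjusted p = 0.0955) and without IFE cKO replicates 1 (-0.40, limma adjusted p = 0.0716), 2 (-0.40, limma adjusted p = 0.107) or 3 (-0.42, limma adjusted p = 0.0964).

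The genes that were lower in bulge cKO had IFE differences of 0.00 for Hoxa3, -0.06 for Hoxa5, 0.03 for Hoxb7, -0.13 for Hoxb5, -0.21 for Hoxb6 and 0.15 for Hoxd9. Hoxb8 and Hoxc8 had IFE differences of -0.46 and -0.39 with wide errors (SE 0.26 and 0.34), and neither passed. The IFE groups of Hoxb8 did not overlap, at 6.51 to 7.2 in cKO and 7.24 to 7.66 in WT, while those of Hoxc8 did. The IFE signals of Hoxb6 and Hoxd8 lay below the array median on all IFE arrays.

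The effect of the knockout in bulge was set against that in IFE by limma's test of the difference itself. It called 1 of the 34 Hox genes, Hoxa5, at -0.81 with a standard error of 0.12 (limma adjusted p = 0.0375), with 0 in the other direction, while 0.0819% of all genes had a lower and 0.0234% a higher effect in bulge. At an unadjusted p under 0.05, 12 had a lower and 1 a higher effect in bulge. Hoxa5 read 6.66, 6.44, 6.58 and 6.5 in IFE cKO cells, against 6.57, 6.66 and 6.58 in IFE WT cells, where the groups overlapped, unlike those in bulge. Hoxa3 (-0.88, limma adjusted p = 0.0572), Hoxd9 (-1.46, limma adjusted p = 0.0946) and Hoxb7 (-0.68, limma adjusted p = 0.127) came next. Hoxa3 passed with cyclic loess (-0.82, limma adjusted p = 0.0364), with the mean of its probe sets (-0.71, limma adjusted p = 0.0199) and on 1 of its other 3 probe sets when each was tested (-1, limma adjusted p = 0.00636), but not on the remaining ones (-0.67 and -0.29, limma adjusted p = 0.148 and 0.183). The other probe set that passed was dim, at 5.52 to 5.85 in bulge WT and 4.43 to 4.92 on all other arrays. Its name marks the kind whose probes may match more than 1 transcript.

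With any array left out the Hoxa5 difference of effects stayed between -0.88 and -0.76, but its call was lost without any bulge WT or any IFE WT array, with limma adjusted p of 0.0531, 0.103 and 0.0839 for bulge WT replicates 1 to 3 and 0.146, 0.0645 and 0.0979 for IFE WT replicates 1 to 3. It was also lost without bulge cKO replicate 2 (limma adjusted p = 0.0717) or 3 (limma adjusted p = 0.076) and without IFE cKO replicate 1 (limma adjusted p = 0.0707), 3 (limma adjusted p = 0.108) or 4 (limma adjusted p = 0.0642). The count of Hox genes with a different effect was 3 without bulge cKO replicate 1 and 7 without bulge cKO replicate 4.

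In cKO mice, too, many Hox genes had a higher signal in bulge than in IFE cells. In limma's test 17 of the 34 Hox genes were higher in bulge cKO than in IFE cKO cells and 0 were lower, while 17.6% of all genes were higher and 14.6% lower; at an unadjusted p under 0.05, 19 Hox genes were higher and 0 lower. Without bulge cKO replicates 2 and 3 the count was 16, while 15% of all genes were higher. Of the 19 genes called higher in bulge in WT, 16 were also called in cKO, out of 17 called there. The group means of the WT and cKO comparisons came from separate arrays, but the calls were not independent. Both used a spread estimated in the same model over all arrays, and probe sets chosen on the mean over all arrays. These 16 genes are 84.2% of the Hox genes called in WT and 94.1% of those called in cKO. Among all genes called higher the shares were 61% and 63.9%, with no test of that difference. The 3 that were not called were Hoxb2 (0.30, limma adjusted p = 0.063), Hoxa7 (0.21, limma adjusted p = 0.139) and Hoxa4 (0.03, limma adjusted p = 0.694). Hoxc10, known for the hindlimb and lumbar region in mice, was called in cKO only, at 0.31 (limma adjusted p = 0.0228), with all values below the array medians; its own difference between the genotypes was not called in limma's test.

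Hoxc8 had the largest difference in cKO mice, at 9.03, 7.65, 7.98 and 9.05 in bulge cKO cells, against 5.83, 5.99, 6.38 and 5.73 in IFE cKO cells, a log2 difference of 2.44 with a standard error of 0.31 (limma adjusted p = 0.000279). Hoxb6 differed by 1.73, Hoxb5 by 1.43, Hoxb7 by 1.42, Hoxb8 by 1.34, Hoxc13 by 1.18 and Hoxd8 by 1.10 on the log2 scale. Hoxa3 differed by 0.62, Hoxd9 by 0.61, Hoxa5 by 0.35 and Hoxa2 by 0.24. Whether these differ from the WT differences is the test of the difference of effects above.

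The remaining 13 Hox genes were called in none of the 5 comparisons, and 8 of them belong to paralogs 10 to 13. Their log2 differences lay between -0.15 and 0.2 in all comparisons. Among the genes with several probe sets, Hoxd13 and Hoxc5 had differences of 0.04 and -0.14 between bulge cKO and bulge WT on their other probe sets, neither past the threshold. Hoxc5 was called between bulge and IFE in both genotypes, but not on its other probe set. There it had 0.19 in WT and 0.2 in cKO (limma adjusted p = 0.264 and 0.166).

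Non-coding RNAs of the clusters were measured for 4 entries. Hoxb5os, which overlaps Hoxb5 and Hoxb6 in RefSeq, read 5.49, 5.45, 5.41 and 5.55 in bulge cKO cells, against 5.85, 5.76 and 5.87 in bulge WT cells, a log2 difference of -0.35 with a standard error of 0.05 (limma adjusted p = 0.00255), and 0 others passed in bulge cKO, with 3 of the 4 at an unadjusted p under 0.05. The groups did not overlap, at signals close to or below the array median. In WT, 3 of the 4 were higher in bulge than in IFE cells, Hoxb5os by 0.56, Hoxaas2 by 0.40 and Hoxd3os1 by 0.16 on the log2 scale (limma adjusted p = 1.5e-05, 0.000179 and 0.00355). For this count and those of the lists below, 18.4% of all genes were higher in bulge WT and 16.6% lower.

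The genes that flank the clusters were set beside them as neighbours in the genome. Of the 16 measured, 0 passed limma's threshold in bulge cKO (3 at an unadjusted p under 0.05) and 0 in IFE cKO (0 at an unadjusted p under 0.05), with median log2 differences of -0.14 and 0.01. Between bulge and IFE cells in WT 5 were higher and 1 lower, with Jazf1 at 0.79, Tax1bp1 at 0.48 and Snx10 at 0.43. Of the 8 homeobox genes next to the clusters and in the ParaHox group, 0 passed limma's threshold for the knockout in either compartment (2 at an unadjusted p under 0.05 in bulge and 0 in IFE), and between the compartments of WT mice Cdx1 was lower (-0.14, limma adjusted p = 0.0296).

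Of the TALE cofactors 8 were measured. Pbx3 was lower in bulge cKO, at 8.16, 7.42, 7.63 and 8.00, against 8.45, 8.47 and 8.35 in bulge WT cells, a log2 difference of -0.62 with a standard error of 0.15 (limma adjusted p = 0.0405). Its lowest values were again on cKO replicates 2 and 3. Meis3 (0.40, limma adjusted p = 0.0313) and Pbx4 (0.23, limma adjusted p = 0.0494) were higher. In bulge cKO 6 of the 8 had an unadjusted p under 0.05. In IFE cKO 0 of the 8 passed limma's threshold, with 2 at an unadjusted p under 0.05. Between bulge and IFE cells of WT mice 5 were higher and 1 lower: Pknox2 was higher by 2.17 and Pbx3 by 1.45, on the log2 scale, and Meis2 was lower, at -1.76.

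Polycomb complexes repress Hox genes, with Ezh2 and Ezh1 as their alternative H3K27 methyltransferases. Of the 26 Polycomb group genes measured, 1 was called in bulge cKO: Aebp2, an accessory subunit of the complex with Ezh2, read 8.69, 8.75, 8.79 and 8.31 in bulge cKO cells, against 7.48, 7.83 and 8.32 in bulge WT cells, a log2 difference of 0.76 with a standard error of 0.19 (limma adjusted p = 0.0485). The lowest cKO array and the highest WT array nearly coincided. In bulge cKO 8 of the 26 had an unadjusted p under 0.05. In IFE cKO 0 of the 26 passed limma's threshold, with 3 at an unadjusted p under 0.05. In WT, 9 of the 26 were higher in bulge than in IFE cells and 7 lower, beside 18.4% and 16.6% of all genes. Among them were Ezh1 at 1.43, Cbx6 at 0.78, Ezh2 at -1.18 and Aebp2 at -1.76 on the log2 scale. Of the 13 Trithorax group genes and H3K27 demethylases measured, 0 passed limma's threshold in bulge cKO (2 at an unadjusted p under 0.05) and 0 in IFE cKO (1 at an unadjusted p under 0.05), and in WT 4 were higher in bulge and 2 lower, among them Cxxc1 at 0.21 and the demethylase Kdm6a at -0.51.

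Homeobox genes of skin outside the clusters were divided between directions. Of the 32 measured, in bulge cKO Irx1 was lower (-0.65, limma adjusted p = 0.0262) and Pitx1, a hindlimb factor in development, higher (0.21, limma adjusted p = 0.0339). In bulge cKO 12 of the 32 had an unadjusted p under 0.05. In IFE cKO 0 passed limma's threshold, with 2 at an unadjusted p under 0.05. In WT 11 were higher in bulge than in IFE cells and 7 lower, led by Lhx2, a transcription factor of hair follicle stem cells, at 5.24, with Irx1 at 1.20, Cux1 at -1.05 and the chromatin organiser Satb1 at -2.28 on the log2 scale.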

How the data were processed

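Per the labels' protocols, TRizol RNA was converted to amplified cDNA, which was fragmented, biotinylated and measured on Affymetrix arrays. The authors deposited a log2 value for each probe set and array, computed with RMA per the submitters' processing notes (version unknown here). Of 45141 probe sets 28898 had a single gene symbol, 551 several and 15692 none; only the first kind was used. A gene was represented by its probe set with the highest mean. The arrays formed 4 groups by title. One limma 3.58.1 model in R 4.3.3 with a mean per group (14 arrays, 10 residual degrees of freedom, eBayes without trend) gave 5 two-sided comparisons, each adjusted by Benjamini and Hochberg over 17097 genes with a threshold of 0.05.

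The Hox genes, the gene lists and the tests were chosen with earlier results of these data known. The text names each Hox gene called in any comparison, up to 6 others beside a called gene or sharing its number, Ehmt2, and up to 4 called genes per list with the smallest p; genes of the marker lists were named after their values were seen. The settings varied were the normalization (cyclic loess or median centring), the inclusion of dim probe sets, other choices of probe set, an intensity trend, array weights (limma's gene by gene estimate), only the groups compared, an adjusted p under 0.1, replicate number as a block and leaving out arrays. The model was tested on simulated data. Promoter sequences are from RefSeq (GRCm38.p6), and figures were drawn with matplotlib 3.10.9. In deviations from the group means, same-numbered bulge and IFE arrays correlated at 0.04 to 0.25 in WT, against -0.25 to 0.14 for other pairs. In cKO the values were -0.57 to 0.15, against -0.39 to 0.47. The labels do not say what a number shares, and these values do not settle whether it pairs samples. The main model used no pairing.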

Additional observations from a re-analysis of the deposited data

Results flagged for a closer look

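In Hoxa5 the cKO effect in bulge minus that in IFE was -0.81 on the log2 scale, and the difference itself passed limma's test. This call was lost in 15 of 26 other settings of the fit, with limma adjusted p of up to 0.199.

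Of 68 groups of 4 arrays tested, 4 held an array far from the others by Dixon's criterion; chance gives about 1 in 20. Hoxb7 read 8.41 on bulge cKO replicate 2, against 8.13 to 8.16 on the other bulge cKO arrays. Hoxa9 read 6.42 on bulge cKO replicate 4, against 6.71 to 6.75 on the others of its group. Hoxb1 read 4.39 on bulge cKO replicate 4, against 4.48 to 4.5. Hoxd3 read 4.52 on IFE cKO replicate 3, against 4.43 to 4.45. The last 2 genes lie below the array median on all arrays.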

How the results depend on the processing

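No Hox call changed direction under any alternative run. The share of all genes called is given only for the reported fit and without bulge cKO arrays 2 and 3, so Hox counts in the other runs have no background beside them. The count of Hox genes called in bulge cKO against WT, 11 as reported, was 19 with array weights (Hoxc10 higher and 18 lower), 3 with only the groups compared and 4 without bulge cKO arrays 2 and 3; leaving out 1 array gave 5 to 14. The count in IFE cKO, 1 as reported, was 0 with cyclic loess, the dim filter or only the groups compared, and 0 to 1 with an array left out. For the difference of the effects, 1 as reported, the count was 15 with array weights, 3 at an adjusted p under 0.1, 2 with cyclic loess, 2 with the mean over probe sets of a gene and 2 with every probe set tested, 0 with the dim filter and 0 without bulge cKO arrays 2 and 3; an array left out gave 0 to 7. Leaving out an array gave 16 to 18 for bulge against IFE in WT, where 19 were reported, and 13 to 17 in cKO, where 17 were reported. In WT, cyclic loess and median centring each called 17 higher and 2 lower, where 19 and 0 were reported. Hoxd11 and Hoxd13 were also the 2 called lower with array weights and at an adjusted p under 0.1. With the intensity trend 1 was lower, Hoxd11. Without bulge WT replicate 3 the 18 were 17 higher and 1 lower, Hoxd13. With replicate number as a block over all groups, bulge cKO gave 6 calls, IFE cKO 0 and the difference of effects 0; the block within genotype gave 0 for the difference. Between compartments the block over all groups gave 18 in WT and 16 in cKO, and the block within genotype 18 and 17. The causes were not tested. The dim filter kept 19 of the 34 Hox genes. With 3 or 4 arrays per group, and 15 Hox genes below the array median throughout, a missed threshold does not show that a gene was level.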
